A study of Mus musculus with 24 samples.

Results

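Colon RNA from 2 of the 8 male mice of this series read far lower for Hoxb13, a homeobox gene of the hindmost gut, than RNA from the other 6. The 2 arrays are those of the animals coded A4 and A6, both M + LFD (replicates 1 and 2). They were chosen by that reading alone: Hoxb13 lay under 8 on the log2 scale of the normalized array signal on A4 and A6, and over 12 on A5 and A8 (M + LFD, replicates 3 and 4) and on B3, B10, B11 and B12 (M + HFD). All 24 arrays of the series were normalized together. Because a reading on these arrays chose them, the differences between A4 and A6 and the other M arrays are given as a description, with no test. Levels are log2 array signals throughout, and a difference is the mean of A4 and A6 minus the mean of the other 6 unless said otherwise.

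The mice were C57BL/6J, 1 mouse per array and 4 per group. All, the LFD animals included, were given the colon carcinogen azoxymethane (AOM) at 10 mg/kg and then dextran sulfate sodium (DSS) at 1.5% in 3 cycles to injure the colon lining. The tissue was taken 75 days after AOM, and there is no untreated group. The M groups had sham surgery and ate a diet with 10 kcal% (LFD) or 45 kcal% (HFD) of energy from fat for 14 weeks. The other 16 arrays are of females on the same diets, with sham surgery (F + LFD and F + HFD) or with the ovaries removed (F(OVX), also on LFD or HFD). The labels give the tissue as colon, whereas the methods name the distal colon and 5 animals per group.

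Hox genes encode transcription factors that are switched on in overlapping domains along the body axis, in the order in which they lie in their clusters. In the gut, genes from the middle of a cluster mark regions nearer the stomach, and those from its posterior end, Hoxa13, Hoxb13 and Hoxd13, mark the distal colon and rectum. The mouse proximal colon is also known for genes of bile acid, drug and carbohydrate handling that the distal colon uses less. In bulk tissue, fewer cells of a type and less RNA per cell cannot be told apart.

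All 4 marker genes placed A4 and A6 on 1 side and the other 22 arrays on the other. Hoxb13 read 2.18 on A4 and 5.04 on A6, and 13.24, 13.66, 14.79, 14.32, 13.37 and 13.90 on A5, A8, B3, B10, B11 and B12. Hoxb13 was well above background on 1 of the first 2 arrays, and it read between 12.58 and 14.50 on the F and F(OVX) arrays. Nothing lay between 5.04 and 12.58 on any array. Hoxa13 followed the same split, with 2.00 on A4, 6.15 on A6 and between 8.16 and 8.63 on the other M arrays. Hoxb6 read 12.71 and 11.20 on A4 and A6 against 5.91, 6.72, 5.92, 4.97, 6.01 and 6.55 on the other 6, a difference of 5.94. Hoxb8 read 10.87 and 9.70 against 3.95, 4.48, 3.71, 5.94, 3.35 and 3.54, a difference of 6.12, and it was well above background on 2 of those 6 arrays. The F and F(OVX) arrays reached 8.35 for Hoxb6 and 5.37 for Hoxb8, below both A4 and A6. After the known order of these genes along the colon, A4 and A6 are called proximal-like below and the other 6 M arrays distal-like.

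Hoxb2, Hoxb4, Hoxb5, Hoxb6, Hoxb7 and Hoxb8 were all higher on A4 and A6 by more than 3 log2 units. Hoxb7 read 12.11 and 11.61 against 5.85 to 6.93, Hoxb5 9.96 and 9.53 against 2.25 to 5.91, Hoxb4 10.78 and 9.50 against 5.58 to 6.60, and Hoxb2 7.50 and 6.93 against 2.30 to 4.86. The groups of arrays did not overlap for any of these. Hoxb9, the next gene before Hoxb13, differed by 1.04 (12.52 and 12.24 against 10.93 to 11.80), and Hoxb3 by 0.56. Hoxd4 and Hoxd8 sided with the Hoxb genes, with differences of 4.04 and 3.36. Hoxa genes went the other way or overlapped: Hoxa6 (-2.13), Hoxa9 (-1.74) and Hoxa10 (-1.76) were lower on A4 and A6, whereas Hoxa7 and Hoxa11 overlapped between the sides.

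The posterior Hoxd genes varied among the 6 distal-like arrays more than the Hoxb genes did. Hoxd13 read 2.07 and 2.11 on A4 and A6, not well above background, and 5.08, 6.46, 11.38, 8.53, 5.35 and 9.49 on A5, A8, B3, B10, B11 and B12. It was well above background on 5 of these 6, and the mean of the 6 was at least 23.9-fold higher. B3 and B12 also carried Hoxd10 (8.48 and 6.98) and Hoxd12 (8.07 and 4.85), while the remaining 4 of the 6 read 3.69 or less and A4 and A6 read 5.86 and 5.56 for Hoxd10. B3 also had the highest Hoxb13 level of the 24 arrays (14.79). The heat map of Hox genes shows both patterns.

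**Figure D1:**
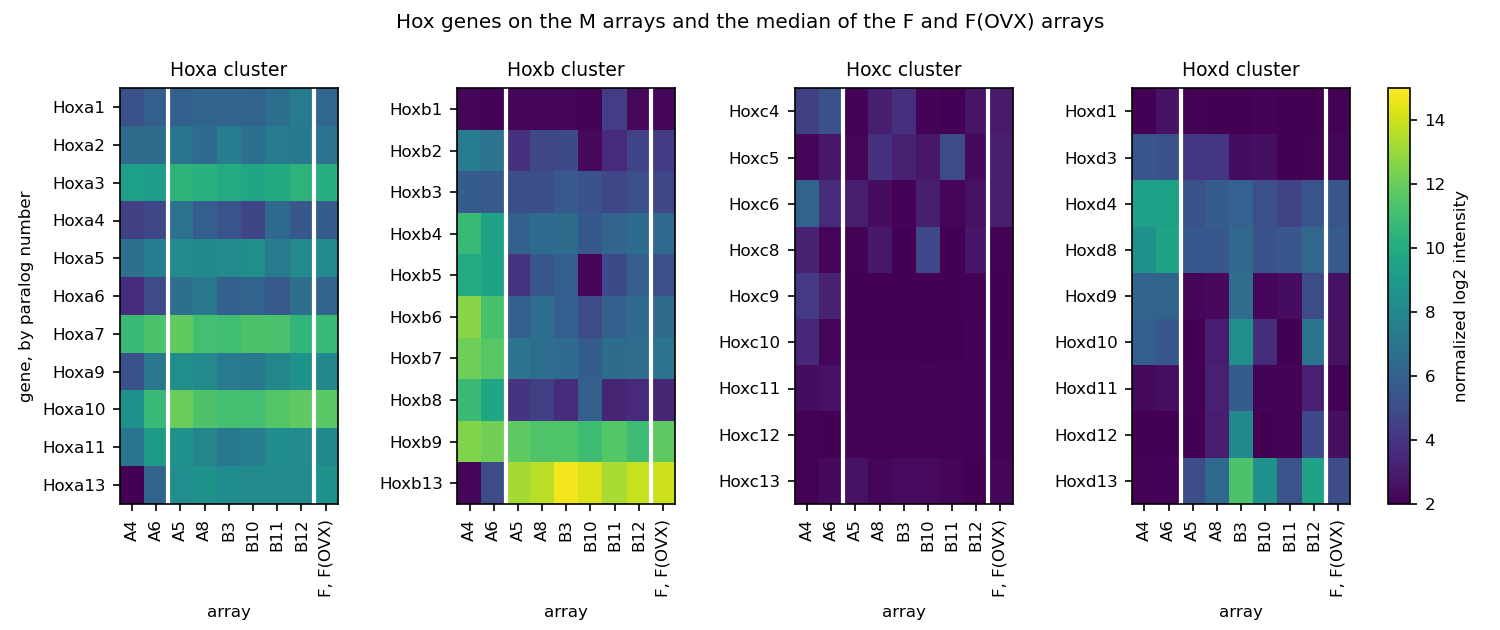
Log2 array signal of the Hox genes (rows, by cluster) on the 8 M arrays, with A4 and A6 first, and the median of the 16 F and F(OVX) arrays in the last column; colour gives the level on 1 scale. Hoxb4 to Hoxb8 are high and Hoxb13 and Hoxa13 low on A4 and A6, and Hoxd13 is brightest on B3 (11.38) and B12 (9.49).

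The promoters of 4 genes that carry the split are shown: Hoxb8 and Slc51a, an exporter of bile acids, which were high on A4 and A6, and Mptx1 and Tgm3, which were low. Tgm3 was low on 1 of its 2 probes only. Each runs from 250 bases before to 50 bases after the annotated start, 5′ to 3′ on the gene's own strand, from RefSeq on GRCm38.p6. Capitals mark short words bound by families of gut transcription factors, found on both strands: TTTATG, a word of Cdx and Hox factors, in Hoxb8; AGGTCA, a nuclear receptor recognition word, in Slc51a and Tgm3 (as TGACCT); and GTTAAT, a word of Hnf1 factors, in Mptx1, where 2 copies meet head to head. The windows are chr11:96281655-96281954 on the + strand (Hoxb8), chr16:32487830-32488129 on the - strand (Slc51a), chr1:174330268-174330567 on the + strand (Mptx1) and chr2:130012090-130012389 on the + strand (Tgm3).
Hoxb8: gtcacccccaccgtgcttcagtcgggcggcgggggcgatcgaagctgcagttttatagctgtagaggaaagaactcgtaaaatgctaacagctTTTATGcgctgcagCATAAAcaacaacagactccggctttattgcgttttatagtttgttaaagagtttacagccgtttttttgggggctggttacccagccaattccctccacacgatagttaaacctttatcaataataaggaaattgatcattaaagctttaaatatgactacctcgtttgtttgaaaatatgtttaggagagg
Slc51a: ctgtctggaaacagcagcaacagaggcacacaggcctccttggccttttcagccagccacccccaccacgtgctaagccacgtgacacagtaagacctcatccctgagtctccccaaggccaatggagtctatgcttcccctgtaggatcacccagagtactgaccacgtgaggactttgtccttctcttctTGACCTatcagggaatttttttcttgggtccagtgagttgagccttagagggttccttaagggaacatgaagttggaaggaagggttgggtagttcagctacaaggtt
Mptx1: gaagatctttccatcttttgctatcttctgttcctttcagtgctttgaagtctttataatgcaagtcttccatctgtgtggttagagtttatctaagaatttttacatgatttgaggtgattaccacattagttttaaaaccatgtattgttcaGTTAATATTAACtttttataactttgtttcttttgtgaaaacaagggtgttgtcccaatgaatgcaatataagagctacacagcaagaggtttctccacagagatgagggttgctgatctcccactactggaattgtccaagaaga
Tgm3: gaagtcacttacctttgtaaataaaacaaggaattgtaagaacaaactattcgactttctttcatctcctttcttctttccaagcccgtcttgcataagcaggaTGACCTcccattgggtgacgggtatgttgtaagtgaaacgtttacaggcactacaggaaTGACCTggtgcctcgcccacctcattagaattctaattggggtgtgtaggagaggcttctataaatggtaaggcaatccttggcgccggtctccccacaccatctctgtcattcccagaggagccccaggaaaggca

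The words are common, and a match is a description and not a site. TTTATG or its complement was found for 14% of the 694 genes higher on A4 and A6 that had a promoter window. The share was 11.5% of the 261 such genes that were lower and 8.95% of the 12307 among all genes compared. A gene counted if any of its windows held the word. Of all 32851 windows, counted singly and so in another unit, 11.9% held it. GTTAAT was in 8.65%, 12.6%, 6.10% and 7.10% of them in the same order, and AGGTCA in 19.2%, 18.8%, 15.7% and 16.3%. TTTACG, a word of the Hox factors at the posterior end, was in 3.03%, 1.53%, 4.08% and 3.03%. The Hoxb8 window printed above also holds this word, as CGTAAA at -175 from the start, left in lower case. None of the 4 words contains another, and each was counted on both strands.

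The split ran far beyond the Hox genes. A gene was compared if every array of at least 1 side read well above background for its probe, and it was called apart if A4 and A6 both lay above, or both below, all other arrays of the comparison and the means differed at least 2-fold. Of 26134 genes, 1215 were apart and higher on A4 and A6 (4.65% of genes compared), and 526 were apart and lower (2.01%). Because the arrays were chosen by one of these genes, the shares are the background for the gene groups below and nothing is read from their size. A gene could enter through 1 side alone, the side on which it was bright, so that the counts follow in part from this rule. At 4-fold or more, 358 were higher and 136 lower. The median difference of all genes was 0.00. Of the 5 posterior Hox genes compared, 3 were apart and lower and 0 higher (median -1.76). Hoxb13, by which the arrays were chosen, is counted among these 3 and in the median. Of the 23 anterior and central Hox genes, 10 were higher and 2 lower (median 0.94). Among these 10, Hoxb2, Hoxb5, Hoxb6, Hoxb8, Hoxc4, Hoxd4 and Hoxd8 entered through A4 and A6 alone. Hoxb6 and Hoxb8 are also marker genes by which the sides were named.

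A4 and A6 resembled each other, with r = 0.99 across probes, against 0.952 to 0.978 with the other 6 arrays and 0.957 to 0.985 among those 6. Counting genes at least 4-fold apart between 2 arrays and well above background on both, A4 and A6 differed in 218, either of them and 1 of the 6 in 408 to 832, and pairs of the 6 in 96 to 577. The 6 distal-like arrays were thus not all closer to each other than A4 was to A6. Neither array was dim: 61.9% and 60.9% of probes were well above background on A4 and A6, against 45.9% to 60.1% on the other M arrays and 40.5% to 61.9% on all 24. All 8 M arrays lay on 1 slide, with M + LFD in 1 row and M + HFD in the other, and the F and F(OVX) arrays lay on other slides. The share of probes detected was higher on A4 and A6 than on each of the other 6, and its part in the counts was not tested.

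Array A5 stood apart from every other array by genes of the acinar cells of the pancreas, which make digestive enzymes. Cela2a, an elastase, read 16.84 on A5 and 2.69 to 6.01 on the other M arrays, Ctrb1, a chymotrypsinogen, read 16.44 against 4.66 to 6.20, and Cel, a lipase, read 14.82 against 3.35 to 4.60. The mean level over the list of acinar markers was 8.98 on A4, 8.93 on A6, 9.08 to 15.49 on the other 6 and 8.70 to 9.43 on the F and F(OVX) arrays, and 0 of the 9 compared were higher and 2 lower on A4 and A6. Without A5, 1207 genes were apart and higher and 639 lower. Hoxb13 is also expressed in the prostate, and of 15 markers of prostate and seminal vesicle 2 were bright enough to be compared, with 0 higher and 1, the trypsin inhibitor Spink1, lower on A4 and A6.

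Genes of bile acid uptake and export were among the most different. Slc51a, one chain of the exporter at the base of the enterocyte, read 11.97 and 13.04 on A4 and A6, and 2.21, 2.17, 2.07, 2.81, 5.09 and 3.68 on A5, A8, B3, B10, B11 and B12. It was well above background on 1 of these 6, and the difference was 9.50. Its partner chain Slc51b differed by 2.65. Slc10a2, the sodium-driven importer of bile acids in the ileum, read 9.37 and 10.88 against 2.08 to 7.29. Nr1h4, the bile acid receptor FXR, read 12.98 and 12.95 against 11.41 to 12.03. Fabp6, which binds bile acids inside the cell, read 12.53 on A6 but 9.11 on A4, next to the highest of the other 6 at 9.03. Of the 12 bile acid genes compared, 5 were apart and higher and 0 lower, with a median difference of 0.89. Slc51a and Slc10a2 entered the comparison through A4 and A6 alone, and without the filter on dim probes the median was 0.32.

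Cytochrome P450 genes differed in both directions. Cyp2c65, a cytochrome P450 of the gut, read 14.73 and 14.55 on A4 and A6 and 10.81, 9.30, 7.15, 7.16, 11.31 and 7.86 on the other 6, a difference of 5.71. Its relatives Cyp2c66 and Cyp2c55 differed by 5.57 and 5.49, and Cyp4b1 by 5.96. Probes of such close relatives can share signal. Within the other 6, B11 and A5 read highest for Cyp2c65 and B3 and B10 lowest, so that this gene also varied where Hoxb13 was high. Of 36 cytochrome P450 genes compared, 11 were apart and higher and 3 lower (median 0.51). The lower ones included Cyp2f2, a P450 of airway and gut epithelium, which read 5.26 and 5.10 on A4 and A6 against 7.23 to 11.72.

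The enzymes that conjugate steroids and drugs with glucuronic acid were higher where they differed. Ugt2b38 read 11.49 and 10.72 against 2.64 to 6.83, and Ugt2b5 differed by 5.89. Of 36 conjugating enzymes, 10 were higher and 0 lower (median 0.56). That list is not of glucuronic acid enzymes alone, and the sulfotransferase Sult1d1 (difference 2.24) is among the higher ones. Carboxylesterases, which split esters of drugs and lipids, had the largest median of all lists (2.31), with 9 of 11 apart and higher and 1 lower. Without the filter on dim probes their median was 1.82. Ces1g read 11.86 on A4 and 10.78 on A6 against 4.79 to 8.65, Ces1f 11.74 and 11.87 against 8.22 to 10.17, and Ces1d 11.52 and 10.42 against 7.73 to 9.41. The mean level over the list was 10.65 and 10.52 on A4 and A6, above the 8.15 to 9.35 of the other 6.

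Brush border genes of the small intestine were also higher. Sis, which splits sucrose and starch fragments, read 7.98 and 9.20 against 2.01 to 4.01, and Alpi, the intestinal alkaline phosphatase, 10.36 and 10.06 against 3.26 to 7.98. Prap1, a secreted lipid-binding protein of the gut lining, read 12.23 and 12.53 against 4.54 to 7.51, and Hkdc1, a hexokinase relative, 12.74 and 12.87 against 5.48 to 8.20. Abca12, a lipid transporter, differed by 5.86. Of 25 small intestinal markers compared, 12 were higher and 0 lower (median 1.11, or 0.71 without the filter on dim probes). Their mean level was 8.75 on A4, 9.42 on A6 and 6.87 to 7.70 on the other 6. Their part in the other differences was not tested.

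Some small intestinal markers read high on A6 and not on A4, and those given here were chosen after their values were seen. Apoa4, an apolipoprotein of absorbing enterocytes, read 2.09 on A4 and 7.79 on A6, Lct, the lactase, 2.40 and 6.98, Gata4, a transcription factor of the upper small intestine, 2.26 and 6.09, and Apoa1 2.18 and 6.35. A4 lay at background for these, though not for Sis and Alpi, as did the other 6, which read 3.17 or less. Of 9 Paneth cell markers 2 were higher and 2, the mucosal pentraxins Mptx1 and Mptx2, lower. Isg15, an interferon-stimulated gene, read 11.47 on A4 and 14.86 on A6. Naip6, a sensor of bacterial proteins, went the other way, at 10.48 on A4 and 4.58 on A6. Among the 1215 genes higher on both arrays, A4 read above A6 in 502, and among the 526 lower ones A4 read below A6 in 300.

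Transcription factors and retinoid genes differed in both directions. Osr2, a zinc finger factor of embryonic patterning, read 12.83 and 12.70 on A4 and A6 and 2.19, 2.12, 4.57, 2.24, 3.83 and 3.99 on the other 6, with 1 of these well above background, and its difference was 9.61, a value that depends on the background level of the other 5. Tbx3, a T-box factor, differed by 3.03 and Cdx2, which specifies intestinal epithelium, by 1.88. Evx1, a homeobox gene beside the Hoxa cluster, read 2.07 and 5.95 against 6.99 to 8.44. Cdx1, a relative of Cdx2, was not apart (difference 0.00), and of 34 patterning factors 4 were higher and 3 lower (median 0.01). Isx, which limits the use of vitamin A in the gut, read 13.06 and 12.92 against 3.30 to 9.75. Aldh1a1, which makes retinoic acid, differed by 3.66, whereas Adh1, which acts on retinol and ethanol, differed by -3.31.

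Cells that signal within the wall differed in part. Nts, the peptide neurotensin, read 10.51 and 11.65 against 4.59 to 6.70, and Sct, secretin, 14.03 and 13.63 against 9.30 to 11.27. Insl5, a peptide hormone of distal colon L cells, read 6.10 and 7.22 on A4 and A6 and 11.46, 11.83, 12.08, 13.20, 12.34 and 12.28 on the other 6, a difference of -5.54. Pyy, another L cell hormone, differed by -1.31. Of 24 enteroendocrine genes compared, 9 were higher and 3 lower (median 0.66), so that this group split by member.

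Genes of enteric neurons and glia were higher in number but close in range. Of 31 compared, 16 were apart and higher and 0 lower (median 1.26). Prph, a neuronal filament, read 8.87 and 9.08 on A4 and A6 against 3.49, 7.16, 8.25, 3.54, 5.73 and 6.47. B3 came nearest, and A5 and B10 were lowest. The mean level of the list was 7.44 and 7.66 on A4 and A6, 5.44 to 7.08 on the other 6 and up to 7.23 on the F and F(OVX) arrays, and smooth muscle markers, with 1 of 22 apart (median 0.05), did not move with it.

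Ion transport genes differed for some members, and mucus genes for few. Car1, a carbonic anhydrase of colonocytes, read 17.18 and 16.55 against 11.95 to 14.04, a difference of 3.86. Of 43 ion and water transport genes, 8 were higher and 2 lower (median 0.17). Aqp8, the main water channel of colonocytes, overlapped between the sides (-0.45). Muc2, the main mucin of goblet cells, read 16.98 and 17.08 against 16.08 to 17.18, and of 25 goblet cell genes 1 was higher and 1 lower (median 0.09). Reg3b, an antimicrobial lectin, differed by 6.09 but read 13.59 on A5, 8.0 on A8, 2.19 on B3, 8.65 on B10, 9.94 on B11 and 4.37 on B12, and A5 lay just under the 13.66 of A4.

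**Figure D2:**
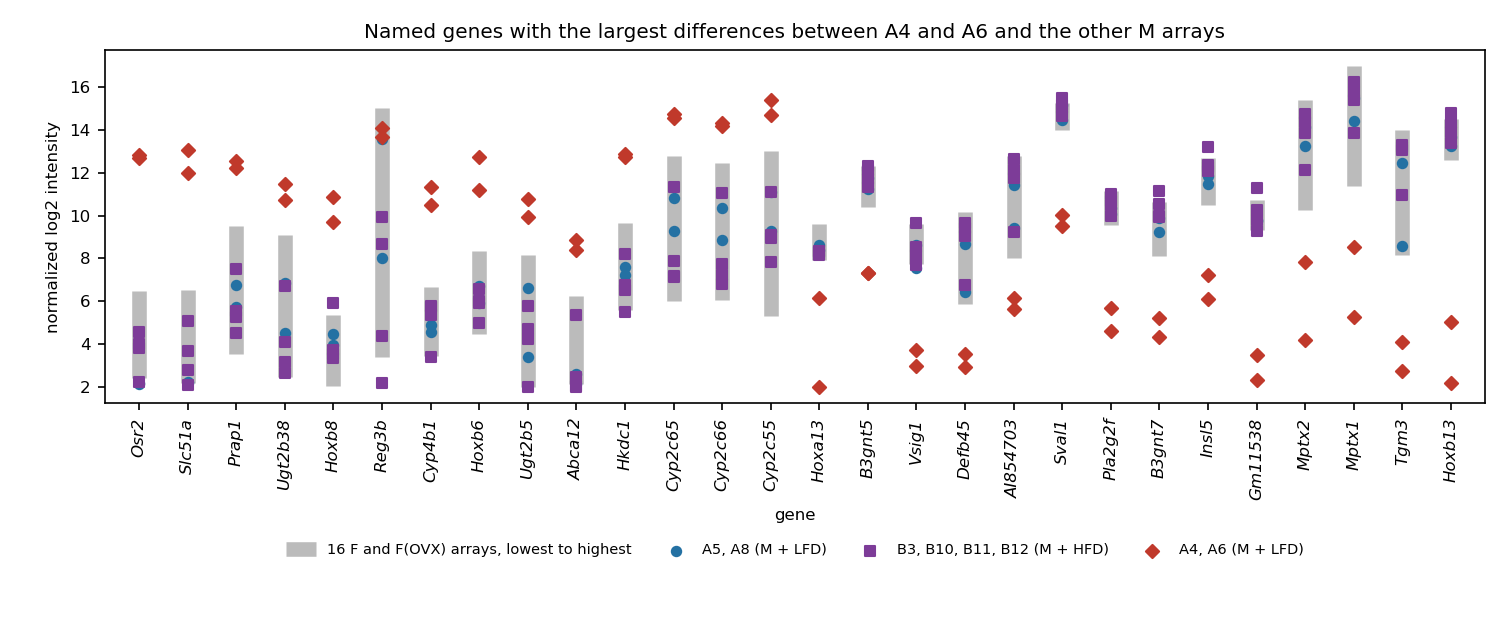
Log2 array signal of the named genes with the largest differences in each direction; each point is 1 M array and the grey bar runs from the lowest to the highest of the 16 F and F(OVX) arrays. A4 and A6 lie above the other M arrays for the genes on the left and below them for those on the right, and for Reg3b they lie within the grey bar.

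Among genes lower on A4 and A6, Hoxb13 was followed by Tgm3, Mptx1, Mptx2 and Gm11538, a noncoding RNA, among those with a symbol. Tgm3, a transglutaminase that crosslinks proteins, read 2.73 and 4.11 on A4 and A6 and 8.60, 12.43, 13.18, 13.07, 10.94 and 13.30 on the other 6, a difference of -8.50. This is the brighter of 2 probes of the gene, and the other, well above background on all 8 M arrays, differed by -0.01, so that the values of Tgm3 hold for 1 probe only. A5 and B11, which read highest for Cyp2c65, read lowest for Tgm3. Mptx1, a mucosal pentraxin, read 5.28 and 8.55 against 15.50, 14.41, 15.77, 16.25, 15.40 and 13.84, and its relative Mptx2 differed by -7.72. Pla2g2f, a secreted phospholipase, differed by -5.26, Sval1, a secreted protein of the seminal vesicle antigen type, by -5.23 and Best2, a chloride channel of goblet cells, by -3.50.

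Enzymes that build mucin sugars were mixed as a group. B3gnt7, which adds N-acetylglucosamine, read 4.34 and 5.21 on A4 and A6 against 9.21 to 11.16, and B3gnt5 7.34 and 7.32 against 11.23 to 12.31. Of 46 glycosyltransferases compared, 5 were higher and 6 lower (median 0.05). Fibroblast and matrix genes gave 0 higher and 8 lower of 38 (median -0.58). Thbs4, a matrix thrombospondin, read 8.62 and 9.89 against 13.07 to 13.60, and Pi16, a marker of adventitial fibroblasts, 5.95 and 5.98 against 8.07 to 9.75. The mean level of that list was 8.73 and 8.89 on A4 and A6 and 9.25 to 9.97 on the other 6. Squamous markers, which mark the lining beyond the rectum, gave 0 higher and 3 lower of 18, with Tgm3 among the 3, and Krt14, a basal keratin, read 6.44 and 6.12 on A4 and A6 against 6.50 to 10.96, with B12 and B11 highest.

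Markers of immune cells split with Hoxb13 in the M arrays for some types and not for others. Of 25 myeloid, 9 MHC class II and 16 B and plasma cell genes, 0 were apart in either direction, with medians of -0.35, -0.37 and -1.52, and of 24 T and NK cell genes 6 were higher and 2 lower (median 0.38), with Gzma, a killer cell protease, at 11.83 and 11.18 on A4 and A6 against 7.34 to 9.48. Interferon-stimulated genes were apart in 3 of 38 (median 0.80), and their mean level was 10.32 on A4, within the 9.52 to 11.21 of the other 6, and 11.87 on A6. Proliferation genes were apart in 0 of 32 (median -0.41). Mki67, a marker of dividing cells, read 11.50 and 10.57 on A4 and A6 and 12.83, 12.15, 10.51, 11.79, 11.47 and 10.58 on the other 6. Housekeeping genes were apart in 0 of 18 (median -0.01).

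**Figure D3:**
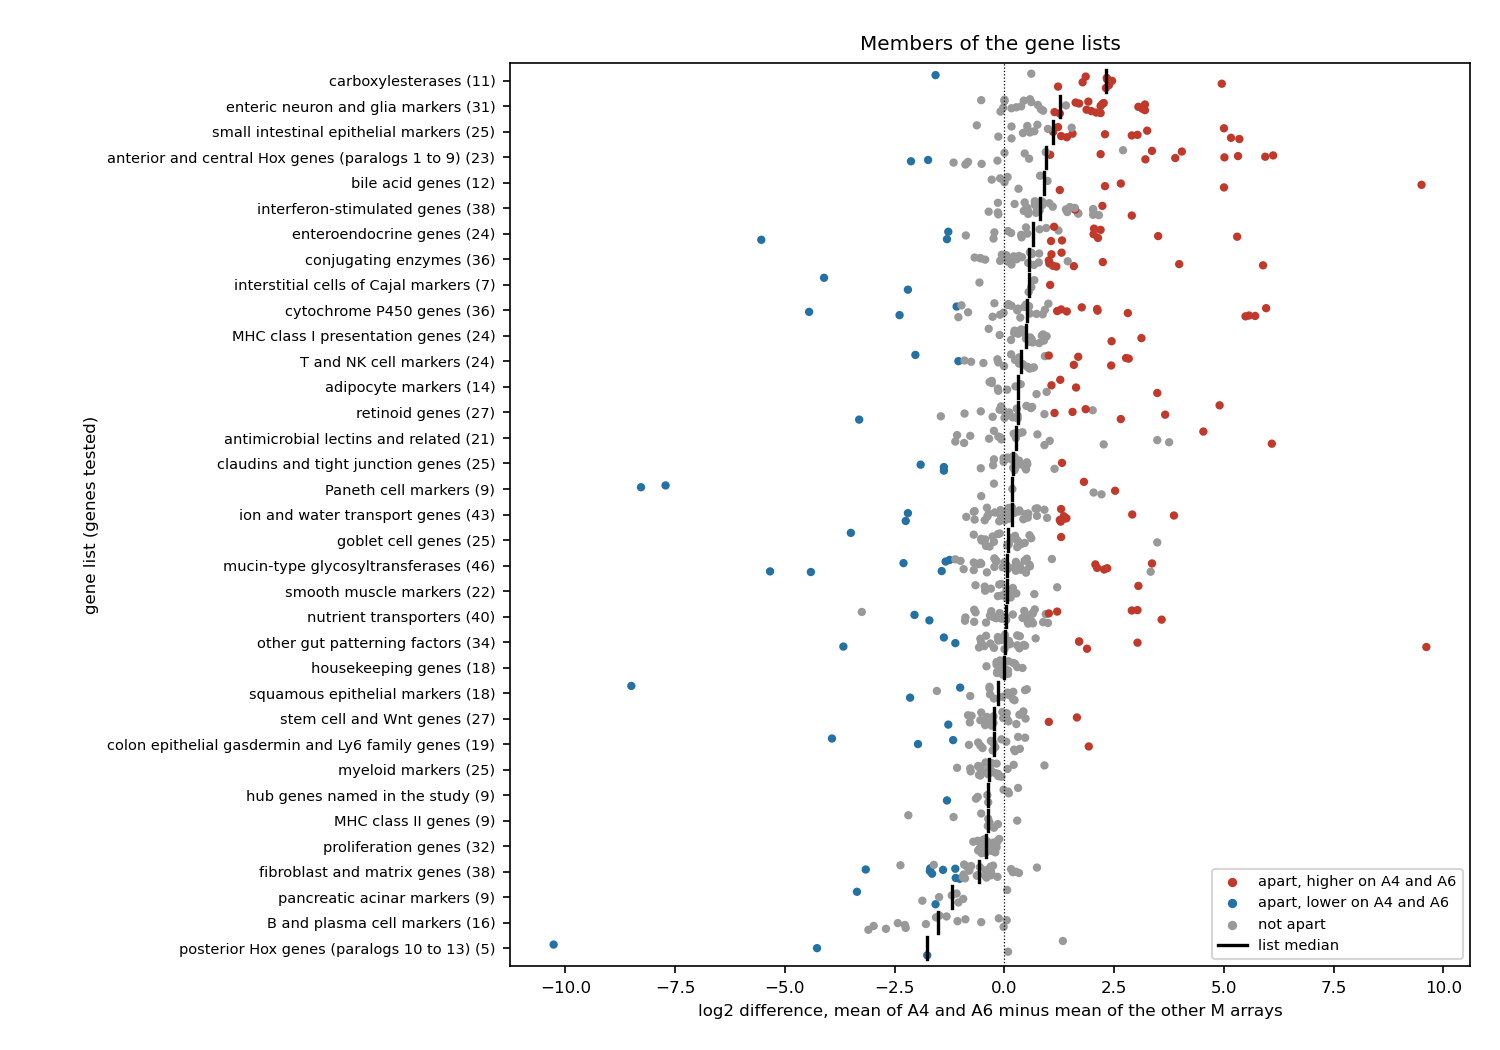
Log2 difference (mean of A4 and A6 minus mean of the other 6 M arrays) of the members of each gene list; each point is 1 gene, coloured by whether it was apart and in which direction, and the bar is the list median. Carboxylesterases (2.31), enteric neuron and glia markers (1.26) and small intestinal markers (1.11) lie highest, and posterior Hox genes (-1.76, with Hoxb13 counted) lowest.

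Both A4 and A6 had eaten LFD, so that they were also set beside A5 and A8 alone, which holds the diet equal. With 2 arrays on each side, 1337 of 26211 genes were apart and higher (5.10%) and 1236 lower (4.72%). Of these, 880 higher and 420 lower genes were also apart against all 6. The 2 descriptions share A4, A6, A5 and A8, and the pancreatic genes of A5 enter the lower side. Hoxb13 differed by -9.84 from the mean of A5 and A8. Proliferation genes, with a median of -0.41 against the 6, had one of -1.41 against A5 and A8, and the anterior and central Hox genes one of 0.61 in place of 0.94. Against all 22 other arrays of the series, 873 of 26119 genes were apart and higher (3.34%) and 317 lower (1.21%), which took in 743 (61.2%) of the 1215 higher and 280 (53.2%) of the 526 lower genes.

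Hoxb13 also varied among the 16 F and F(OVX) arrays, which had no part in choosing A4 and A6, over a range of 12.58 to 14.50. For each gene, the slope on the log2 level of Hoxb13 was fitted over these arrays with limma, with a term for the group, which holds slide and diet. At an adjusted p under 0.05, 4 slopes were negative (0.0181% of the 22128 genes tested) and 8 positive (0.0362%). At an unadjusted p under 0.05, 1459 were negative (6.59%) and 2006 positive (9.07%). The 12 calls numbered 226 without F + HFD replicate 2, 81 without F + HFD replicate 4 and 0 to 13 without any other single array. They numbered 0 when arrays were scaled to their 75th percentile. They also numbered 0 once the replicate number, which is also the column of the array on its slide, entered as a block.

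Genes that were high on A4 and A6 mostly had negative slopes on Hoxb13 among the females, and genes that were low mostly positive ones. Of the 805 higher genes tested, 79.9% had a negative slope and 35.8% a negative one at an unadjusted p under 0.05, against 47.0% and 6.59% of all genes. Of the 507 genes low on A4 and A6, 85.2% had a positive slope and 48.3% a positive one at that level, against 53.0% and 9.07%. In the F arrays alone the shares were 72.4% and 81.1%, where 53.3% of all genes had a negative and 46.7% a positive slope. In the F(OVX) arrays alone they were 78.5% and 82.6%, where 44.9% and 55.1% of all genes did. Genes move together and are not independent, so that these shares carry no p. No gene had a slope that differed between F and F(OVX) at an adjusted p under 0.05 in limma, and 1547 of the 22128 tested did at an unadjusted p under 0.05.

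AI854703, a gene of unnamed function that was lower on A4 and A6 (5.62 and 6.16 against 9.25 to 12.63), rose by 2.66 per log2 unit of Hoxb13 among the females (SE 0.39, n = 16, limma adjusted p = 0.0499). Chosen after their values were seen, Hsd17b14, a steroid dehydrogenase, fell by 1.82 per unit (SE 0.29) and Srgap3, a regulator of cell shape, fell by 0.87 (SE 0.14), both at the same adjusted p in limma. Both were higher on A4 and A6, by 2.70 and 1.99. Of the 12 calls, 3 fell on genes higher on A4 and A6, 3 on genes lower and 6 on genes apart in neither direction, Lipo3 among them. Cyp2c65 had a slope of -3.07 (SE 0.68) and Prap1 one of -2.33 (SE 0.51), with an adjusted p of 0.0794 in limma for each. Tgm3, on the probe that split, had a slope of 2.19 (SE 0.55, unadjusted p = 0.00136 in limma). Hoxb6 had one of -1.45 (SE 0.43, limma adjusted p = 0.135).

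Other genes of the split had no such slope. Insl5, lower on A4 and A6 by 5.54, had a slope of 0.00 (SE 0.30), and Tbx3 one of 0.22 (SE 0.27). Hoxa13 had a slope of -0.61 (SE 0.23, unadjusted p = 0.0207 in limma) and Evx1 one of -0.92 (SE 0.37), so that these genes, low where Hoxb13 was low on A4 and A6, had negative and not positive slopes among the females. Of the 25 neuron and glia markers tested, 16 had a negative slope, 0 of them at an unadjusted p under 0.05 in limma, against 2 positive ones. Other lists with raised medians on A4 and A6 differed among the females. Negative slopes were had by 3 of 11 bile acid genes (median 0.16) and 9 of 18 small intestinal markers (median 0.01). Cytochrome P450 genes had 15 of 30 (median -0.02). Carboxylesterases, with 7 of 9 (median -0.41), and conjugating enzymes, with 27 of 32 (median -0.2), had mostly negative slopes.

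Immune genes moved with Hoxb13 among the females as well. Of 18 B and plasma cell markers, 17 had a positive slope and 16 of these an unadjusted p under 0.05 in limma (median slope 2.09). All 11 MHC class II genes had a positive slope, 10 of them at that level, and 14 of 37 fibroblast and matrix genes were positive at that level, 0 negative. Of 38 interferon-stimulated genes 37 had a negative slope, 30 at that level (median -0.85). The part of these cell types in the slopes of the other genes was not tested.

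**Figure D4:**
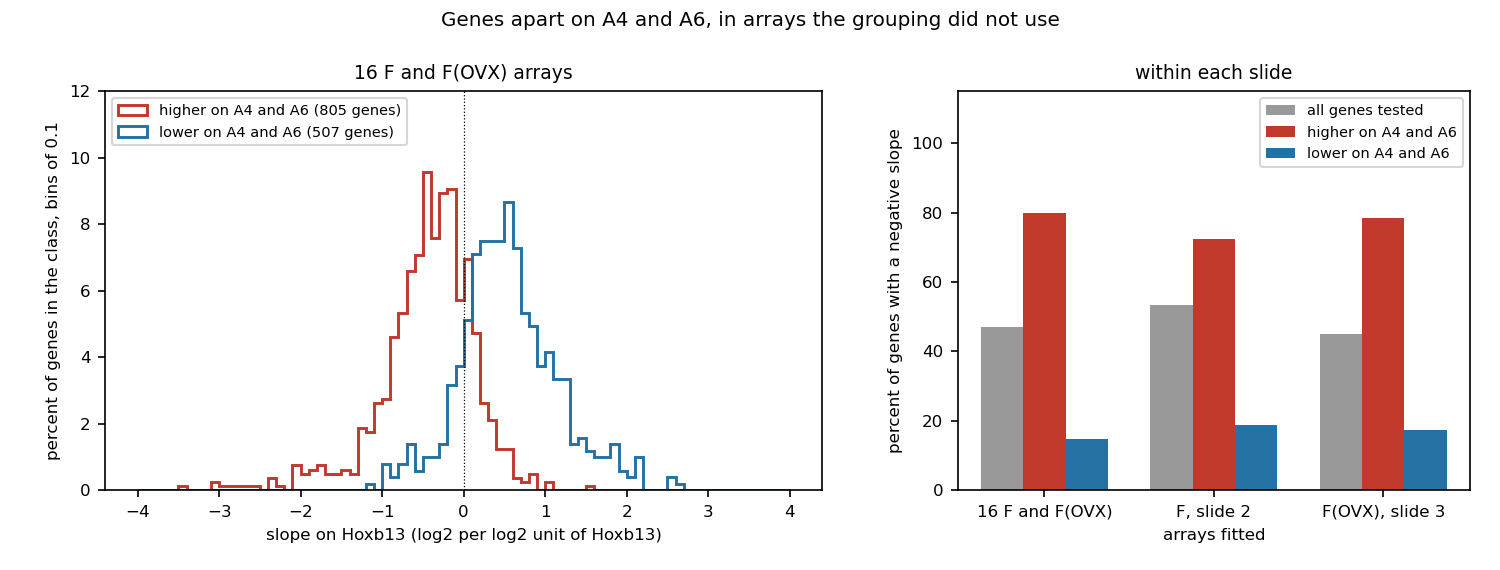
Left, slopes per log2 unit of Hoxb13 in the 16 F and F(OVX) arrays as the percent of genes in bins of 0.1, for the 805 genes higher and the 507 genes lower on A4 and A6; right, the percent of genes with a negative slope in all 16 arrays and within each slide. Genes higher on A4 and A6 lie mostly under 0 (79.9%) and genes lower on them mostly over 0 (85.2%).

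The labelled comparison of M + HFD with M + LFD holds A4 and A6 among its 4 LFD arrays, and it was run with and without them. The study's thresholds (1.5-fold or more, with an unadjusted p under 0.05) gave 512 genes up (2.50% of 20511 tested) and 370 down (1.80%) in limma with all 8 arrays. Without A4 and A6, 335 were up (1.63% of 20584) and 533 down (2.59%). Of the 882 genes called with all arrays, 220 (24.9%) were called in the same direction without the 2. No gene passed an adjusted p under 0.05 in limma either way, and 1250 of 20511 and 1095 of 20584 genes had an unadjusted p under 0.05. The smaller comparison rests on A5 and A8, of which A5 carried the pancreatic genes, and it has fewer arrays.

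The 2 arrays are both LFD and were chosen by their Hoxb13 level, so that genes apart on them tend to have smaller diet differences without them by the choice itself, and the values are a description. A diet difference is the mean of M + HFD minus the mean of M + LFD. Tgm3, on the probe that split, differed by 5.66 with them, past the study's thresholds, and by 2.11 without them, short of the thresholds. Hoxb13 itself differed by 5.56 with them and by 0.65 without, and passed in neither. Cyp2c65 went from -3.98 to -1.69, Reg3b from -6.05 to -4.51 and Hoxb6 from -3.27 to -0.45, and these 3 passed with A4 and A6 only. Insl5 passed both ways, at 3.33 and 0.84, as did Ces1g, at -3.91 and -2.15.

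Some genes passed the thresholds both ways. Lipo3, a lipase relative that was not apart on A4 and A6 but was one of the 12 slope calls among the females (0.60 per unit of Hoxb13, SE 0.09), differed by 0.72 with them and 0.77 without. Spink1, which was apart and lower on A4 and A6, differed by 1.77 and 1.16. Of the 9 hub genes of the study, 4 were called up with all 8 arrays and 1 without A4 and A6. Rhob, a small GTPase, differed by 0.83 and 0.97 and was the one called both ways. Junb, a chain of the factor AP-1, differed by 0.66 and 0.49, and Arhgap35 by 0.60 and 0.45, both called with all 8 arrays only. Hif1a, the hypoxia factor, for which the difference of A4 and A6 from the other 6 was -1.31, had a diet difference of 0.89, past the thresholds, with them and of 0.35, short of them, without.

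Gene lists changed with the 2 arrays as well. The median diet difference went from -0.71 to 0.06 for carboxylesterases, from -0.18 to 0.19 for neuron and glia markers and from -0.19 to 0.21 for small intestinal markers once A4 and A6 were left out. The interferon-stimulated genes kept a negative median, -0.99 with them and -0.87 without, with 14 and 8 members called down. Proliferation genes had 0 of 32 called with all 8 arrays (median -0.78) and 24 called down without A4 and A6 (median -1.46), where A5 and A8, the highest M arrays for Mki67, made up the LFD group. These lists share arrays and were not tested as sets.

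**Figure D5:**
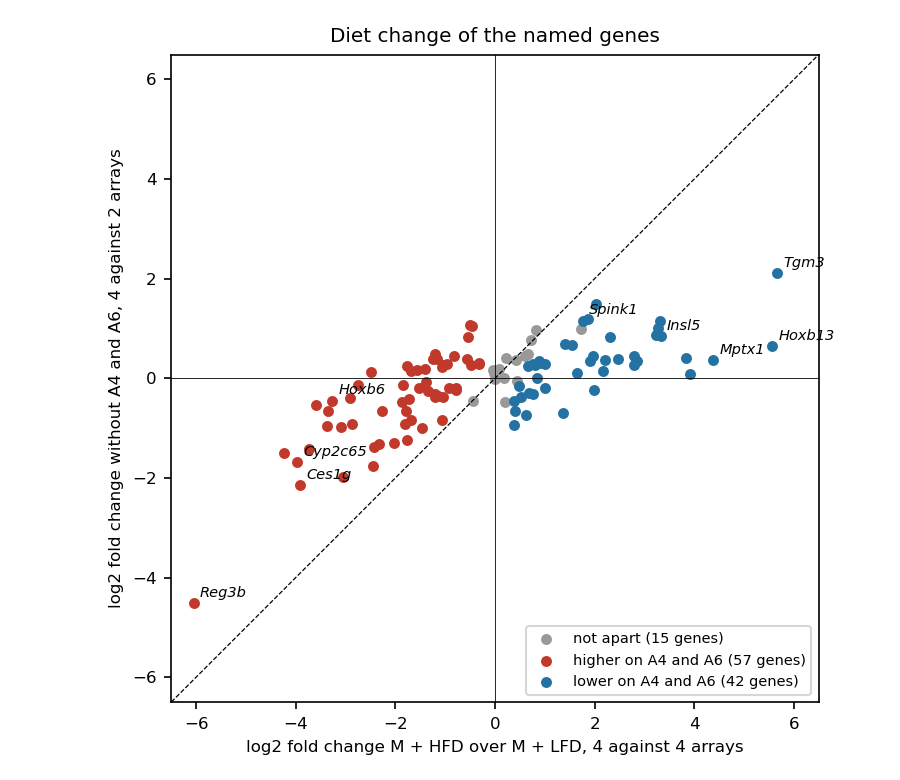
Log2 difference of M + HFD minus M + LFD for the named genes with all 8 arrays (x axis) and without A4 and A6 (y axis); each point is 1 gene, coloured by its side of the split, and the dashed line marks equal values. Tgm3 lies at 5.66 on the x axis and 2.11 on the y axis, and Reg3b at -6.05 and -4.51.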

How the data were processed

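Colon RNA of 24 mice was hybridized by the authors to 1-color Agilent mouse arrays, and the spots were extracted with Feature Extraction 11.0.1.1, as the submitters' processing notes give it. The deposited intensity values are background-subtracted spot signals on a linear scale that were not normalized between arrays, with median spot and local background intensities and flags beside them. Groups, replicate numbers and animal codes came from the labels.

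Control spots and spots flagged as outliers were dropped, and log2 values of the processed signal were put on 1 distribution across all 24 arrays (quantile normalization, limma 3.58.1, R 4.3.3). Repeat spots of a probe were averaged, and the brightest probe stood for its gene. Of 56605 probes, 32994 (58.3%) took a symbol from RefSeq on GRCm38.p6 through their unversioned accession, and the rest are named by accession. The array's own annotation uses another assembly, so that coordinates are given for RefSeq promoters only. A gene was compared where at least 1 side was well above background throughout, and where a side was so on none of its arrays the difference is a bound. Precision is limited by the 4 arrays per group, and 0 spots were flagged as saturated. The description of the 8 M arrays left out 8 genes with a missing value.

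Slopes and diet differences were fitted with lmFit and eBayes, with Benjamini-Hochberg adjustment over all genes tested. Simulated data with known changes were used to test the scripts. The members, gene lists (36) and alternatives were chosen with earlier results of these data known. The genes named are the marker and Hox genes, the 12 with a symbol and the largest difference in each direction, up to 4 of each list with the largest difference among those apart, members whose defining role is described, hub genes and Muc2; Isg15, Naip6, Gata4, Apoa1 and any other gene were chosen after their values were seen. LFD and HFD arrays are of different mice, and those that share a replicate number also share a column of their slide. The deviations of such arrays from their group means had r = 0.29, 0.44, 0.56 and 0.26 in F. In M r was 0.03, -0.25, 0.01 and -0.02 and in F(OVX) 0.34, -0.09, 0.33 and 0.23. The labels give no pairing, and arrays of unlike replicate numbers were not compared in this way. Alternatives were scaling to the 75th percentile, normexp background correction (offset 50), no filter on dim probes, the mean of all probes, normalization over the arrays compared, a 4-fold limit, arrays left out, other covariates and a block. Promoters were read from RefSeq, for 694 of the 1215 higher and 261 of the 526 lower genes. Results for some genes are not reported here.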

Additional observations from a re-analysis of the deposited data

Results flagged for a closer look

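Among 260 sets of 4 arrays, 1 gene in 1 M group each, 10 held an array far from the other 3. Independent draws from 1 normal distribution would give about 1 such set in 20. The genes move together, and most were chosen because A4 and A6 split from the other M arrays, A5 and A8 among them. That rate therefore does not apply here, and whether 10 of 260 is more than chance gives was not tested.

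In M + HFD, B11 stood apart for 4 genes. It read 11.31 for Cyp2c65 (next 7.86), 5.34 for Abca12 (next 2.48), 10.94 for Tgm3 (next 13.07) and 10.20 for Gsdme (next 9.07). B10 read 5.94 for Hoxb8, with the next array at 3.71. B12 read 8.10 for Ccr7 (next 9.0) and 11.38 for Fbln1 (next 10.30), and B3 read 3.30 for Isx (next 8.91). In M + LFD, A8 read 8.0 for Reg3b, with the other 3 from 13.59 to 14.09, and 8.78 for Krt14 (next 6.50).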

How the results depend on the processing

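The small number of arrays limits every value, and genes near background are limited most: with normexp, which lifts low signals, Hoxb13 differed by -7.73, Osr2 by 6.51, Slc51a by 6.26, Tgm3 by -5.77 and Mptx1 by -7.34. The direction of the named genes did not reverse under any alternative run, and 719 of their 780 values moved by less than the spread between arrays. Most of these genes were chosen because A4 and A6 lay beyond all other M arrays. Leaving out an array cannot turn the direction of such a gene, so that nothing is read from this. The cause was not tested for any value below. Where 1 of A4 and A6 is left out, the other stands alone on its side, so that more genes can lie beyond all others.

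Counts of genes higher and lower on A4 and A6 were 545 and 266 with normexp, 358 and 136 at 4-fold, and 317 lower against all 22 other arrays. Against A5 and A8 they were 650 and 537 with normexp and 331 and 242 at 4-fold. With single arrays left out they ranged from 1081 to 1843 (higher; highest without A4) and from 534 to 944 (lower; 944 without A4 and 868 without A6), and against A5 and A8 from 1398 to 1925 (lower; 1925 without A5). Diet calls numbered 567 with normexp, 489 by the methods' t-test, 0 by it after Benjamini-Hochberg, 0 at an adjusted p under 0.05 in limma, 584 (without B3) to 1511 (without A8) with single arrays left out, and 868 without A4 and A6.

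List medians moved with normexp for anterior and central Hox genes (0.43), conjugating enzymes (0.44), retinoid genes (0.18), small intestinal markers (0.70), neuron and glia markers (0.53), interstitial cells of Cajal (0.26) and stem cell genes (-0.09). Without the filter they moved for posterior Hox genes (-0.54), carboxylesterases (1.82), bile acid genes (0.32), small intestinal markers (0.71), Paneth cell markers (0.74), interstitial cells of Cajal (0.12) and adipocyte markers (-0.04). The mean of all probes gave 0.12 for interstitial cells of Cajal, and the 75th percentile gave -0.07 for housekeeping genes. Against A5 and A8 they were 0.61 (anterior and central Hox), 0.46 (ion and water transport), 0.88 (cytochrome P450), 0.42 (retinoid), -0.40 (Paneth), -0.07 (gasdermin and Ly6), 0.31 (interstitial cells of Cajal), -0.02 (adipocyte), 0.12 (T and NK cells), -0.15 (stem cell), -1.41 (proliferation), -4.18 (pancreatic acinar) and -0.03 (hub genes).

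With single arrays left out, list medians ranged from 0.21 to 0.82 (MHC class I), -0.44 to 1.58 (Paneth), 0.64 to 1.13 (anterior and central Hox), 1.91 to 2.42 (carboxylesterases), -0.49 to 0.14 (gasdermin and Ly6, reversed without A4), 0.37 to 0.61 (conjugating), 0.53 to 0.98 (enteroendocrine), -0.06 to 0.03 (housekeeping), 0.17 to 1.46 (interferon-stimulated), 0.27 to 0.64 (interstitial cells of Cajal), -0.54 to -0.09 (myeloid), -0.02 to 0.22 (nutrient transport), -2.96 to -0.72 (posterior Hox), 0.58 to 1.68 (small intestinal), -0.23 to -0.10 (stem cell), 0.29 to 0.68 (cytochrome P450), 0.14 to 0.56 (T and NK cells), -2.37 to -0.92 (B and plasma cells), -0.61 to -0.29 (MHC class II), -0.83 to 0 (proliferation), -0.34 to 0.37 (smooth muscle), 0.08 to 0.29 (ion and water transport), 0.58 to 0.96 (bile acid), -0.02 to 0.19 (goblet cell), -0.01 to 0.11 (glycosyltransferases) and -1.59 to -0.16 (pancreatic acinar). The medians of Paneth cell, gasdermin and Ly6, housekeeping, glycosyltransferase, goblet cell, smooth muscle and nutrient transport genes thus have no settled sign. Nor has that of the adipocyte markers, which was negative without the filter and against A5 and A8.

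The slope calls numbered 0 with the 75th percentile, without the filter, with the replicate block, with Hoxb6 and Hoxb8 as covariate, in F(OVX) alone and without the 3 arrays of lowest Hoxb13 or fewest probes, 1 in F alone, 3 with the mean of all probes, 294 without the group term, 3465 at an unadjusted p under 0.05 and 0 to 226 with single arrays left out. The share of higher genes with a negative slope was 85.6% with the 75th percentile, 76.3% without the filter, 74.9% with the other covariate, 72.4% in F alone, 71.7% without the 3 arrays and 70.2% to 83.0% with single arrays left out. The share of lower genes with a positive slope was 78.9%, 81.1% and 80.0% with the other covariate, in F alone and without the 3 arrays, and 80.6% to 86.6%. With the replicate block the shares were 69.2% and 80.9%. The block raised the diet calls to 960 in M, where arrays of the same replicate number did not deviate together. Without A4 and A6 the median diet difference reversed for carboxylesterases (0.06), neuron and glia markers (0.19) and small intestinal markers (0.21).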
